A study of Mus musculus with 4 samples.

Results

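7 genes listed for the 2-cell-like state of mouse embryonic stem cells (ESCs) were followed on 4 mRNA arrays: Usp17la, Tcstv1, Tcstv3, Zfp352, Eif1a, Sp110 and Arg2. They are 7 of the 18193 genes measured and are read by 12 probe sets, each annotated to a single gene. They were chosen from the levels on all 4 arrays and from the low values of Usp17la and Tcstv1 in the line NT-1, so the contrast of NT-1 with the other arrays is given as a description, without a test.

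The arrays held RNA of NT-1, NT-2 and NT-3, ESC lines from cloned blastocysts (NT-ESCs), and of the induced pluripotent stem cell (iPSC) clone Adeno-1 whose nuclei were transferred to make them. The clone came from tail-tip fibroblasts reprogrammed with adenoviral vectors. All cells grew in serum and leukaemia inhibitory factor (LIF) on irradiated mouse embryonic fibroblasts (MEFs), which were depleted by preplating before RNA extraction. The labels name the 3 lines as subclones, give neither strain nor age, and give 1 array for each line and 1 for the single clone. Whether the lines were derived independently of each other is unknown, so an n of 3 counts arrays, and SDs and p-values measure the spread between these arrays only.

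In cultures of mouse ESCs, a small and changing minority of cells passes through a state that resembles the 2-cell embryo, the stage at which the mouse embryo starts to transcribe its own genome. Such cells transcribe MERVL endogenous retroviruses, the Zscan4 and Tcstv clusters and many young gene families, under the transcription factor Dux, and leave the state again. Chromatin repressors such as the KAP1 (Trim28), LSD1 (Kdm1a) and CAF-1 (Chaf1a, Chaf1b) complexes hold these genes silent in the other cells. The arrays read whole cultures, so fewer cells in the state and less RNA per cell cannot be told apart.

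Levels below are on a log2 intensity scale rebuilt from the deposited values with the mean of each array set to an assumed 7. With 6 in its place all log2 differences shrink by 14.3%. With 7.86, where the top probe set hits the 16-bit ceiling of 16, they grow by 12.3%. The median probe set stood at 6.82 in NT-1, 6.83 in NT-2, 6.83 in NT-3 and 6.84 in the iPSC clone. No detection calls were used, and the brightness of a probe set depends on its probes, so levels are compared between arrays and not between genes.

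The genes lie on several chromosomes. In the RefSeq table of build GRCm38.p6, Sp110 is on chromosome 1, Zfp352 on 4, Usp17la on 7, Arg2 on 12, Tcstv1 and Tcstv3 on 13 and Eif1a on 18. RefSeq windows from 250 bases before to 50 bases after the gene start were matched by gene symbol for 3 of the 7 genes, Usp17la, Zfp352 and Sp110. For Tcstv1, Tcstv3 and Arg2 no window was found. Eif1a was not looked for, because its chromosome was left out of the search. The windows of Usp17la, Zfp352 and Sp110 are printed with those of Zscan4c and Gm4340. Zscan4c and Gm4340 are each 1 of several genes annotated to the 2 probe sets with the widest gap of NT-1 below the other arrays. They are shown to set the start regions of members beside those of other 2-cell-like families, and the signal of those 2 probe sets cannot be assigned to Zscan4c or Gm4340 alone. All run 5′ to 3′ on the strand of the gene, and capitals mark the motifs CACACCNTTAATC and TATAA, each on either strand. The windows are chr7:104856766-104857065 (+) for Usp17la, chr7:11005495-11005794 (+) for Zscan4c, chr10:104193792-104194091 (+) for Gm4340, chr1:85603842-85604141 (-) for the upstream start of Sp110 and chr4:90218570-90218869 (+) for Zfp352.
Usp17la: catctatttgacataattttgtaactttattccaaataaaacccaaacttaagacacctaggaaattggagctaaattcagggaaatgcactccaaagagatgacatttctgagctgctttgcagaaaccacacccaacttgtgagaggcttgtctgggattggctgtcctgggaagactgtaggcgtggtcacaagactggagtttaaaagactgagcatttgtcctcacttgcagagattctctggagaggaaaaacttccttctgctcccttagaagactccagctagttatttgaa
Zscan4c: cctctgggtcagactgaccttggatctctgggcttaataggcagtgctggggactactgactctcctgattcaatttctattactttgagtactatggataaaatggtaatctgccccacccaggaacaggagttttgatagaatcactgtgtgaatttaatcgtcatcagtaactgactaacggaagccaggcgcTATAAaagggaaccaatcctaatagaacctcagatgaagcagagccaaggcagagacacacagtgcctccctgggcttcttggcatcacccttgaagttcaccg
Gm4340: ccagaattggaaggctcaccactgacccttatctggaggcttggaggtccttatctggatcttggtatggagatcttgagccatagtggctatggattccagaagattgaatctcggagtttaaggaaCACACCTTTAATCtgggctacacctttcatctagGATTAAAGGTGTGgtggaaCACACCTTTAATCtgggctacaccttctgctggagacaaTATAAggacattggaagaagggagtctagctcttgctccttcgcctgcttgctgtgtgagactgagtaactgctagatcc
Sp110: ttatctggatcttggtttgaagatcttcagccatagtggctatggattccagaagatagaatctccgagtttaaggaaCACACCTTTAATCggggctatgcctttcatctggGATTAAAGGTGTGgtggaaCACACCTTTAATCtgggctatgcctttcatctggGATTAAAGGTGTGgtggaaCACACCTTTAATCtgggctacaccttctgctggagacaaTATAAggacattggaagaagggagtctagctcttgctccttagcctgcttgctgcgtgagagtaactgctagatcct
Zfp352: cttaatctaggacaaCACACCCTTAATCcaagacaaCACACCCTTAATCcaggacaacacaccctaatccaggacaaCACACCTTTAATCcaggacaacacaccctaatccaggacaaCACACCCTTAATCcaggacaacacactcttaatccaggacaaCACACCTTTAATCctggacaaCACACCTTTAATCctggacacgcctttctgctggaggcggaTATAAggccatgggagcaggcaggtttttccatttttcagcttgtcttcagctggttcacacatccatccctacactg

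The 13-letter motif was chosen after the windows had been read. It was taken from the upstream Sp110 window and the Zfp352 window, with N where they differ, so it had to occur in both. It occurs 6 times in the Zfp352 window, 5 times in the upstream Sp110 window, 3 times in the Gm4340 window and not at all in those of Usp17la and Zscan4c, nor in the window of the second Sp110 start (chr1:85598761-85599060, minus strand). Of the 32851 windows searched, 52 (0.158%) hold it. The search left out chromosome 18 and any window not 300 bases long. TATAA occurs once in each of the printed windows except that of Usp17la, and in 24.9% of the windows searched. The motifs share no letters in the printed windows. The upstream Sp110 window shares an unbroken run of 100 bases with that of Gm4340. Usp17la shares runs of 76 bases with Usp17ld, 49 with Usp17lc and 47 with Usp17lb, its family members on the same chromosome. A match is a stretch of letters and was not tested as a binding site. Of the 51 genes with the motif, 11 were measured by single-gene probe sets. They include Zfp352 and Sp110, from which the motif was taken, and Tdpoz1, so the values that follow are no test. NT-1 was the lowest array for 5 of these 11 and for 25.0% of all 18193 genes, and their median difference in NT-1 from the mean of the other arrays was -0.037 log2, against -0.0031 over all genes.

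Usp17la encodes a ubiquitin-removing protease of the USP17 (DUB) family, whose genes lie in tandem copies. It stood at 6.52 in NT-1, 7.25 in NT-2, 7.65 in NT-3 and 7.54 in the iPSC clone. NT-1 was thus the low array, with the other arrays within 0.40 log2 of each other. NT-1 minus the lowest of the others was -0.73 log2, and the difference from their mean, -0.96 log2, equals a 1.94-fold lower intensity (1.77-fold at an assumed mean of 6 and 2.11-fold at 7.86). Among the probe sets of each array Usp17la took percentile 43.2 in NT-1, 58.9 in NT-2, 66.2 in NT-3 and 64.4 in the clone, so in NT-1 it lay below the array median and elsewhere above it. This ordering within an array does not depend on the assumed mean. Usp17la was 1 of 2 genes in 18193 (0.011%) that stood at least 1.5-fold lower in NT-1 than on every other array, and 1 of the 7 genes described here; since it was chosen for this low value, the count is no test.

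Tcstv1 and Tcstv3 belong to a family of short genes on chromosome 13 that are transcribed in the 2-cell embryo. Tcstv1 stood at 3.93 in NT-1, 4.52 in NT-2, 4.55 in NT-3 and 4.80 in the clone. NT-1 was again the low array: its difference from the mean of the others was -0.69 log2, and the gap to the next array was -0.58, just short of 1.5-fold. Tcstv3 stood at 3.77 in NT-1, 4.01 in NT-2, 3.91 in NT-3 and 4.08 in the clone, a difference of -0.23 log2 in NT-1. The order of the arrays at both ends was the same, NT-1 lowest and the clone highest, but the range over the arrays was 0.86 log2 for Tcstv1 and 0.31 for Tcstv3. Both probe sets were dim. Tcstv1 lay at percentile 5.02 to 13.4 of its array and Tcstv3 at 3.52 to 5.99. Without detection calls it was not tested whether either stood above background, so no fold is given for them.

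Zfp352 encodes a zinc finger protein and is an intronless gene of the 2-cell embryo. Its brighter probe set stood at 6.71 in NT-1, 6.76 in NT-2, 6.80 in NT-3 and 6.88 in the clone, close to the array medians. The arrays spanned 0.17 log2, and NT-1 minus the next array was -0.05 log2. The second probe set, whose suffix warns of cross-hybridization, read 5.33 in NT-1, 5.30 in NT-2, 5.40 in NT-3 and 5.35 in the clone, with NT-2 lowest. Zfp352 therefore did not share the low value of Usp17la in NT-1 on either probe set.

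Eif1a encodes the initiation factor eIF1A, which helps the small ribosomal subunit to scan for the start codon. Its probe sets lay at percentile 92.7 to 95.8 of the arrays. The first probe set stood at 10.68 in NT-1, 10.47 in NT-2, 10.45 in NT-3 and 10.69 in the clone. The second stood at 10.32 in NT-1, 10.26 in NT-2, 10.05 in NT-3 and 10.25 in the clone. NT-3 was the lowest array on both, and NT-1 was 0.14 and 0.13 log2 higher than the mean of the others.

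Sp110 encodes an interferon-inducible protein of nuclear bodies. Its brightest probe set stood at 7.21 in NT-1, 7.20 in NT-2, 7.13 in NT-3 and 6.96 in the clone, so all 3 lines lay above the clone. The next probe set stood at 6.85 in NT-1, 6.85 in NT-2, 6.99 in NT-3 and 6.87 in the clone. The dimmest stood at 5.65 in NT-1, 5.69 in NT-2, 5.74 in NT-3 and 5.77 in the clone, with all 3 lines below the clone. The probe sets of Sp110 thus disagree in the order of lines and clone, and the brightest carries the suffix for possible cross-hybridization.

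Arg2 encodes the mitochondrial arginase, which splits arginine into ornithine and urea. It stood at 5.36 in NT-1, 5.41 in NT-2, 5.66 in NT-3 and 5.83 in the clone, and all 3 lines lay below the clone. Its second probe set stood at 3.91 in NT-1, 4.08 in NT-2, 4.05 in NT-3 and 4.11 in the clone, in which NT-1 was again lowest and the clone highest. NT-1 differed from the mean of the others by -0.28 and -0.17 log2 on the 2 probe sets, but its gap to NT-2 on the first was only -0.05 log2.

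Counted by gene, NT-1 was the lowest array for 5 of the 7 genes, all but Eif1a and Sp110, while it was lowest for 25.0% of all 18193 genes. The iPSC clone was the highest array for 5 of the 7, all but Usp17la and Sp110, against 26.7% of all genes. The median difference in NT-1 was -0.23 log2 over the 7 genes and -0.0031 over all genes. These values were used to choose the genes and support nothing by themselves.

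**Figure D1:**
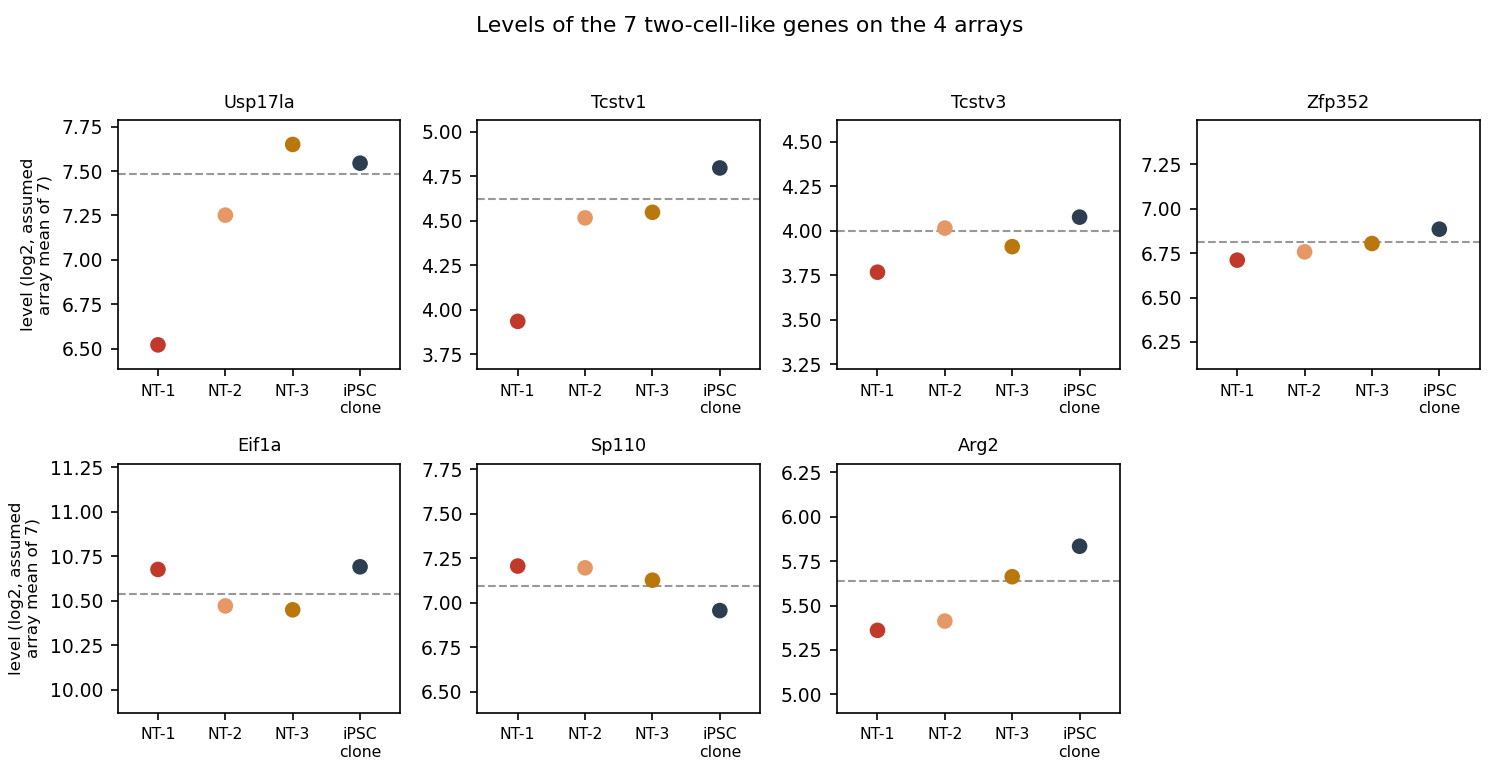
Levels of the 7 genes on the 4 arrays, 1 panel a gene (y axis: log2 level with the mean of each array set to an assumed 7; x axis: NT-1, NT-2, NT-3 and the iPSC clone; dashed line: mean of NT-2, NT-3 and the clone; each panel has its own range). Usp17la and Tcstv1 stand lowest in NT-1, at 6.52 and 3.93, while Eif1a and Sp110 do not.

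The design sets the lines beside the parental clone. None of the 7 genes passed the test of lines against clone (limma, Benjamini-Hochberg adjusted over 18193 genes), and neither did any other gene: 0 were called in either direction (0.0%), with 629 higher and 377 lower at an unadjusted p under 0.05. Usp17la averaged 7.14 ± 0.57 in the lines (SD, n = 3) and 7.54 in the clone, a log2 difference of -0.40 ± 0.40 (SE; limma, adjusted p = 0.907). Tcstv1 averaged 4.33 ± 0.35 in the lines and 4.80 in the clone (SD, n = 3), a log2 difference of -0.46 ± 0.25 (SE; limma, adjusted p = 0.856). For these genes the spread among the lines, set by NT-1, was about as wide as the difference from the clone. Arg2 averaged 5.48 ± 0.16 in the lines and 5.83 in the clone (SD, n = 3), a log2 difference of -0.36 ± 0.13 (SE; limma, unadjusted p = 0.041, adjusted p = 0.856), lower in 3 of 3 lines. Sp110 averaged 7.18 ± 0.04 in the lines and 6.96 in the clone (SD, n = 3), a log2 difference of 0.22 ± 0.08 (SE; limma, unadjusted p = 0.036, adjusted p = 0.856), higher in 3 of 3 lines. With the mean of its probe sets, which disagree, the Sp110 difference was 0.06 (limma, unadjusted p = 0.434). With the mean of both Arg2 probe sets the Arg2 difference was -0.22 (limma, unadjusted p = 0.075). Both genes fail the correction over all genes. Tcstv3 differed by -0.18 ± 0.11 (SE), Zfp352 by -0.13 ± 0.08 and Eif1a by -0.16 ± 0.11, with adjusted p of 0.866, 0.866 and 0.881 by limma.

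NT-2 and NT-3 can be set beside the clone without NT-1. Usp17la differed from the clone by -0.29 log2 in NT-2 and by 0.11 in NT-3. Tcstv1 differed by -0.28 in NT-2 and -0.25 in NT-3, and Arg2 by -0.42 and -0.17. Usp17la was thus on either side of the clone in these lines. Tcstv1, Tcstv3 and Arg2 were below it in both on every probe set. The other 3 genes depended on the probe set. The second probe set of Eif1a differed by 0.01 in NT-2 and -0.20 in NT-3, and that of Zfp352 by -0.05 and 0.05. The dimmest probe set of Sp110 differed by -0.09 and -0.04, and its brightest by 0.24 and 0.17. Without NT-1 no member passed the test either (limma, adjusted p of 0.969 to 0.979).

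Many genes of the 2-cell-like state occur in near-identical copies, and 10 probe sets annotated to several genes carry at least 1 gene of the lists of 2-cell-like genes. Their signal cannot be assigned to any one gene. They were added after their values had been seen, and they show the same contrast as the one that chose the 7 genes, so no test is given. NT-1 was the lowest array for 8 of the 10 (23.3% of all 932 several-gene probe sets) and at least 1.5-fold lower than every other array for 4 of the 10 (0.429% of the 932). These 4 are all such probe sets among the 932, and 1 of them, 1444529_at, lay below the median of every array.

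The probe set 1457033_at is annotated to 6 genes, among them Zscan4a, Zscan4c, Zscan4d and Zscan4f, zinc finger proteins of the 2-cell embryo that lengthen telomeres in ESCs. It stood at 7.27 in NT-1, 8.51 in NT-2, 8.94 in NT-3 and 8.97 in the clone. The difference in NT-1 from the mean of the others was -1.54 log2, a 2.90-fold lower intensity (2.49-fold at an assumed mean of 6 and 3.31-fold at 7.86). Its gap to the next array, -1.24 log2, was the second widest of NT-1 below all other arrays among 45037 probe sets. NT-2 differed from the clone by -0.46 log2 and NT-3 by -0.03, so the remaining arrays were not level either.

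The probe set 1443961_at is annotated to 7 genes that include Gm4340, a gene of the 2-cell embryo on chromosome 10. It had the widest gap of all probe sets. It stood at 7.55 in NT-1, 8.82 in NT-2, 9.03 in NT-3 and 9.11 in the clone, a difference of -1.44 log2 in NT-1 (2.71-fold lower). The probe set 1427479_at is annotated to Eif1a together with Gm4027 and BB287469. It stood at 7.47 in NT-1, 8.29 in NT-2, 8.55 in NT-3 and 8.70 in the clone, a difference of -1.05 log2 in NT-1 (2.07-fold lower). The single-gene probe sets of Eif1a were instead slightly higher in NT-1 than the mean of the others, so the probe sets that carry Eif1a disagree.

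The probe set 1444529_at, annotated to Gm2022, Gm5662 and Gm8300, stood at 5.22 in NT-1, 6.01 in NT-2, 6.26 in NT-3 and 6.20 in the clone (difference in NT-1 -0.94 log2). The probe set 1442334_at, annotated to Gm13040, Gm13043 and Gm13057, stood at 6.74 in NT-1, 7.20 in NT-2, 7.62 in NT-3 and 7.51 in the clone (-0.70 log2). The probe set 1422229_at, annotated to Usp17lc and Usp17ld, relatives of Usp17la, stood at 4.66 in NT-1, 5.12 in NT-2, 5.13 in NT-3 and 5.10 in the clone (-0.46 log2). On all of these NT-1 was the low array, and its gap to the next array was wider than the range of the other 3 on each. Of these probe sets 2 were dim: 1444529_at lay at percentile 19.1 to 37.3 of its array and 1422229_at at 12.2 to 17.7. Whether they stood above background was not tested.

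The remaining 4 probe sets had smaller differences, from -0.22 to -0.02 log2 in NT-1. Among them, 1450547_x_at is annotated to Usp17lc and Usp17ld, as is 1422229_at. It stood at 5.61 in NT-1, 5.58 in NT-2, 6.02 in NT-3 and 5.73 in the clone. NT-2 was the lowest array on it, so the probe sets of these relatives of Usp17la disagree. Another of the 4 is annotated to Duxf3 and 2 further genes. It stood at 5.81 in NT-1, 5.82 in NT-2, 6.16 in NT-3 and 6.09 in the clone, so that NT-1 and NT-2 were low together. The single-gene probe set of Duxf3 stood at 4.28 in NT-1, 4.23 in NT-2, 4.29 in NT-3 and 4.31 in the clone, so these probe sets disagree. Duxf3 belongs to the double-homeobox Dux family that switches the 2-cell-like state on.

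**Figure D2:**
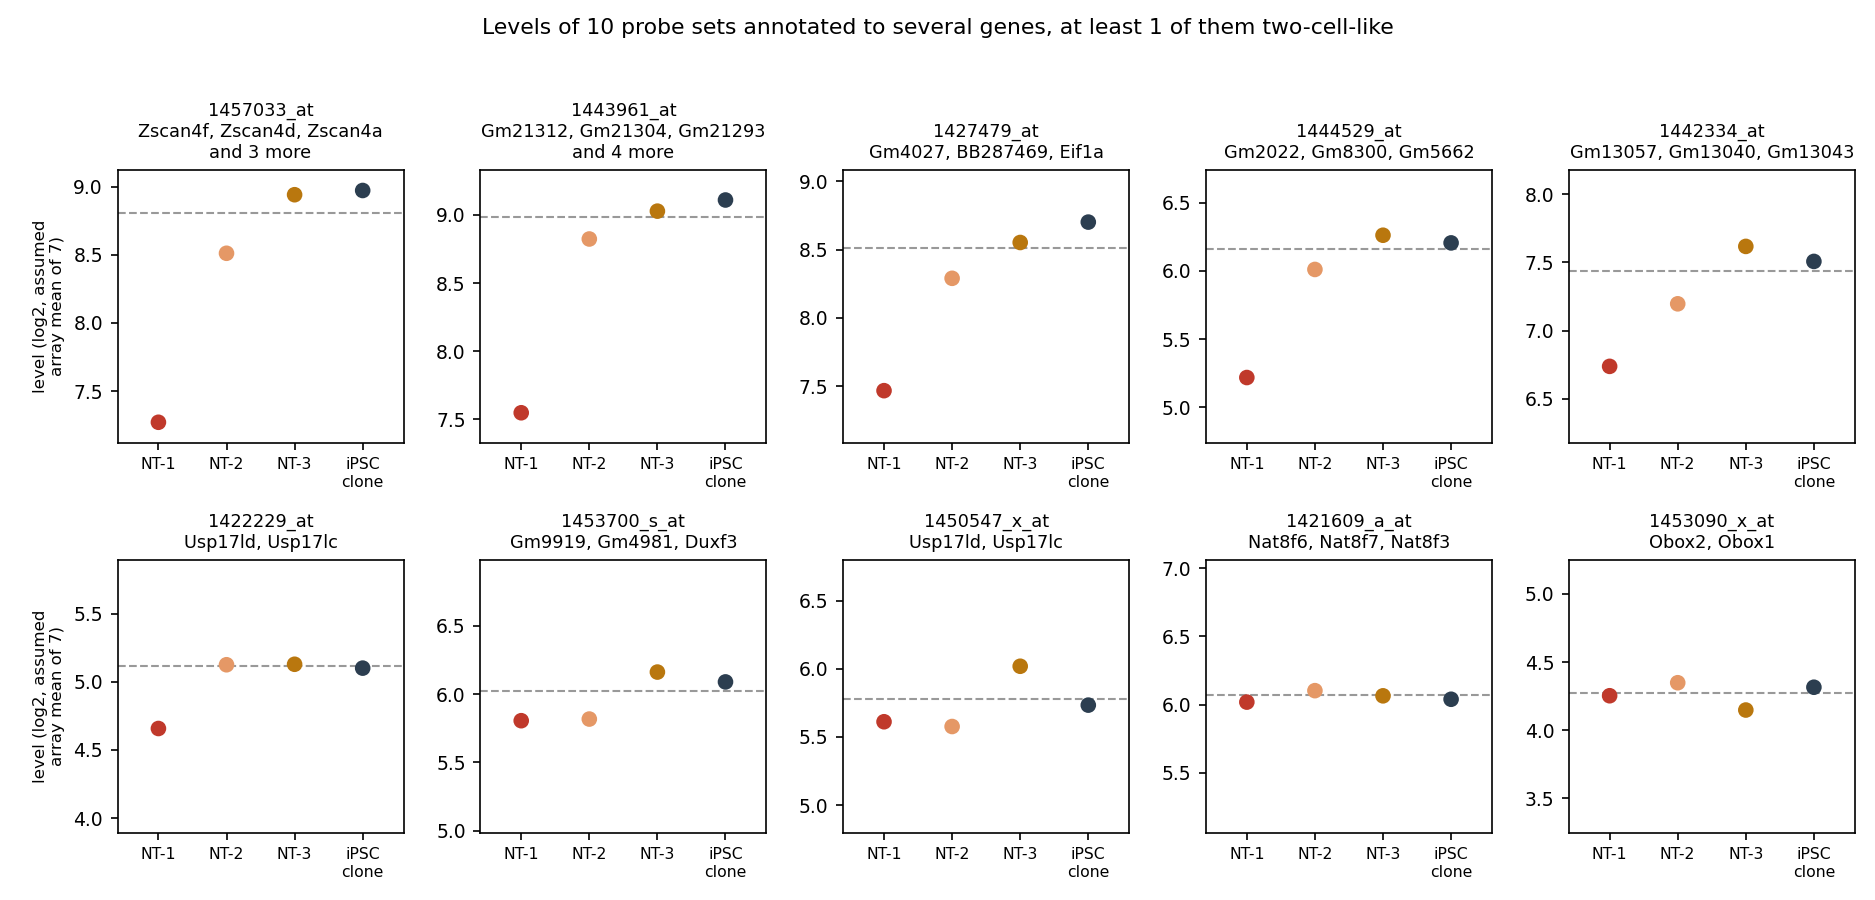
Levels of the 10 probe sets annotated to several genes, at least 1 of them a 2-cell-like gene (y axis: log2 level with the mean of each array set to an assumed 7; x axis: NT-1, NT-2, NT-3 and the iPSC clone; dashed line: mean of NT-2, NT-3 and the clone; each panel has its own range). The Zscan4 probe set, first panel, stands at 7.27 in NT-1 and at 8.51 to 8.97 on the other arrays.

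Over all 45037 probe sets, 7 (0.0155%) stood at least 1.5-fold lower in NT-1 than on every other array. They were the 4 several-gene probe sets above, Usp17la, Krcc1 and a probe set without a gene. Thus 5 of the 7 carry a gene of the 2-cell-like lists, as do 57 of the 45037 probe sets (0.127%). The lists were drawn up with results of these data known, so this share is a description. The number of such probe sets was 14 without NT-2, 16 without NT-3 and 17 without the clone, of which 9, 5 and 5 carry a 2-cell-like gene. The same limit picked out 1 probe set lower in NT-2, 95 in NT-3 and 8 in the clone, so NT-1 is not the array with the most low probe sets.

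**Figure D3:**
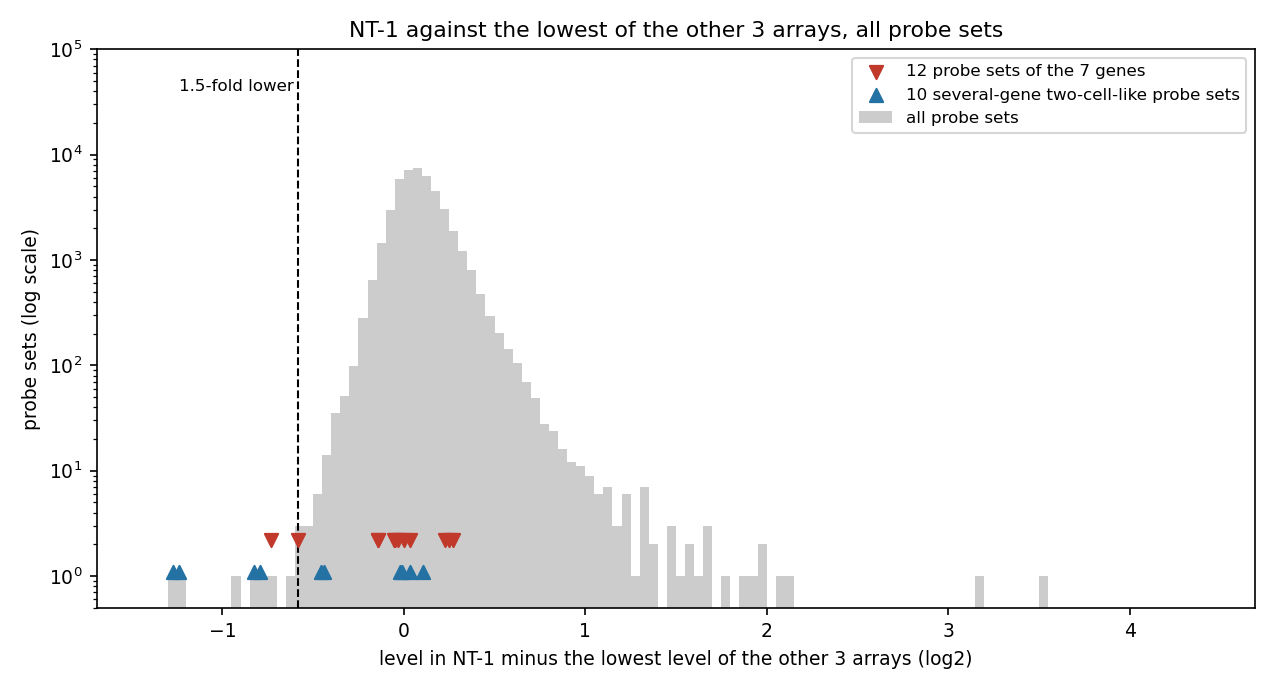
Number of probe sets (y axis, log scale) by the level in NT-1 minus the lowest level of the other 3 arrays (x axis, log2; grey: all 45037 probe sets; red: the 12 probe sets of the 7 genes; blue: the 10 several-gene probe sets; dashed line: 1.5-fold lower; the height of the triangles carries no value). Of the 7 probe sets left of the line, 1 belongs to Usp17la and 4 are several-gene probe sets of 2-cell-like genes.

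Of 74 further 2-cell-like genes listed, 26 were measured by single-gene probe sets, which leave out most of the copied families. None passed limma's test between lines and clone. NT-1 was the lowest array for 14 of the 26 and the highest for 2, against 25.0% and 22.4% of all genes. The median difference of the 26 in NT-1 was -0.083 log2, against -0.0031 over all genes. The differences were uneven. AF067061, a neighbour of Tcstv1, stood at 7.67 in NT-1, 8.11 in NT-2, 8.45 in NT-3 and 8.37 in the clone (-0.65 log2 in NT-1). Gm20767, the next measured gene to Tcstv1, stood at 5.35 in NT-1 and between 5.83 and 6.06 on the other arrays (-0.62 log2). Tdpoz1, which encodes a protein with TRAF and POZ domains and was chosen after its values were seen, stood at 5.50 in NT-1, 5.69 in NT-2, 5.77 in NT-3 and 5.96 in the clone (-0.31 log2). For all 3 NT-1 was the lowest array, as for Tcstv1. Ddit4l stood at 7.53 in NT-1, 7.71 in NT-2, 8.05 in NT-3 and 7.54 in the clone, with NT-1 and the clone level. Calcoco2, an autophagy receptor, stood at 8.14 in NT-1, 8.35 in NT-2, 7.92 in NT-3 and 7.89 in the clone and was not low in NT-1.

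Genes whose course over the arrays was most like that of Usp17la were ranked by Euclidean distance over the 4 arrays after each gene was centred on its own mean. The nearest of all genes was Otx2, a homeobox factor of the epiblast, at a distance of 0.25 log2. It stood at 7.97 in NT-1, 8.37 in NT-2, 8.99 in NT-3 and 8.74 in the clone. The next were AF067061 at 0.28, Gm20767 at 0.34, Rbp4, a carrier of retinol, at 0.35 and Slc47a1, an efflux transporter, at 0.36, against a median of 0.89 over all genes. Tcstv1 came sixth at 0.38. The genes nearest to Tcstv1 were Slc47a1 at 0.11, Gm20767 at 0.16, the formin Fhod3 at 0.18, Zc3h12d at 0.21 and Crmp1 at 0.23, against a median of 0.65. Usp17la was 97th from Tcstv1. Otx2, Rbp4, Slc47a1, Fhod3, Zc3h12d and Crmp1 are not among the listed 2-cell-like genes, so the nearest courses were not those of that list alone, and 4 arrays fix a course only loosely.

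The neighbours of Tcstv1 and Usp17la on the chromosome were read in the same way. Of the 3 measured genes on each side of Tcstv1, the adjoining Gm20767 and AF067061 differed by -0.62 and -0.65 log2 in NT-1. On its other side D13Ertd608e differed by -0.17, AF067063 by 0.20 and Gm46390 by 0.02, and BC147527 lay beyond AF067061 at 0.05. The low values were thus not seen along the whole stretch. Around Usp17la, Trim30a, Trim30d, Olfr658, Olfr672, Olfr690 and Fam160a2 differed by -0.09 to 0.03 log2 in NT-1, and none was near the -0.96 of Usp17la itself. Of all these neighbours only AF067061 and Fam160a2 reached the median level, so a drop in the dim ones could have been missed.

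Regulators of the state did not follow the low genes as a group. Of the listed activators 13 were measured, with a median difference in NT-1 of 0.01 log2. NT-1 was lowest for 5 and highest for 3 of them, against 25.0% and 22.4% of all genes. Dppa3, a maternal factor that promotes the state, stood at 9.88 in NT-1, 9.50 in NT-2, 8.55 in NT-3 and 9.32 in the clone. Tbx3, a T-box factor of naive ESCs, stood at 9.68 in NT-1, 9.64 in NT-2, 9.50 in NT-3 and 9.12 in the clone. Both were highest in NT-1, where Usp17la was lowest. Nr5a2, a nuclear receptor, was also highest there, at 9.79 in NT-1 against 9.41 to 9.72 on the other arrays. These are the 3 activators highest in NT-1. Among the 5 counted as lowest there, Tet1 differed by -0.15 log2 and Dppa2, level in NT-1 and NT-2, by -0.10.

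Of the listed repressors of the state 39 were measured, with a median difference in NT-1 of 0.04 log2. NT-1 was the highest array for 15 and the lowest for 4, against 22.4% and 25.0% of all genes. All 39 lay at or above the median level. Of the 11747 such genes, NT-1 was highest for 2963 and lowest for 2363. Atrx, a chromatin remodeller at silent repeats, stood at 11.26 in NT-1, 11.05 in NT-2, 10.78 in NT-3 and 10.72 in the clone (0.41 log2 in NT-1). Cbx1, a heterochromatin protein of the HP1 family, stood at 11.79 in NT-1, 11.52 in NT-2, 11.11 in NT-3 and 11.52 in the clone (0.40 log2). The histone methyltransferase gene Ehmt2 differed by 0.25 log2 and Mga, a subunit of the PRC1.6 complex, by 0.24. The other listed HP1 genes did not follow Cbx1, with Cbx3 at -0.15 log2 and Cbx5 at -0.0055. Cbx3 was among the 4 repressors lowest in NT-1, as was Asf1b at -0.19 log2. These values passed no test, and their part in the low level of Usp17la was not tested. Trim28, Kdm1a and Chaf1b, whose proteins are the repressors named above, differed by 0.04, 0.03 and 0.05 log2.

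The pathways of Sp110, Arg2 and Eif1a had medians near 0 in NT-1. Of 24 measured interferon-induced genes, the group of Sp110, the median difference in NT-1 was -0.02 log2. Gbp2, a guanylate-binding protein, stood at 7.45 in NT-1, 7.11 in NT-2, 6.20 in NT-3 and 6.83 in the clone. Oas1a, a sensor of double-stranded RNA, differed by 0.25 log2 in NT-1. Over 22 arginine and polyamine genes, the group of Arg2, the median was also -0.02 log2. Azin2, an antizyme inhibitor that raises polyamine synthesis, stood at 8.72 in NT-1, 8.93 in NT-2, 9.12 in NT-3 and 8.78 in the clone. Over 18 translation initiation factors, the group of Eif1a, the median was 0.01 log2. Eif1ax, the X-linked counterpart of Eif1a, stood at 11.65 in NT-1, 11.56 in NT-2, 11.64 in NT-3 and 11.63 in the clone. In none of these groups was a gene called between the lines and the clone by limma.

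**Figure D4:**
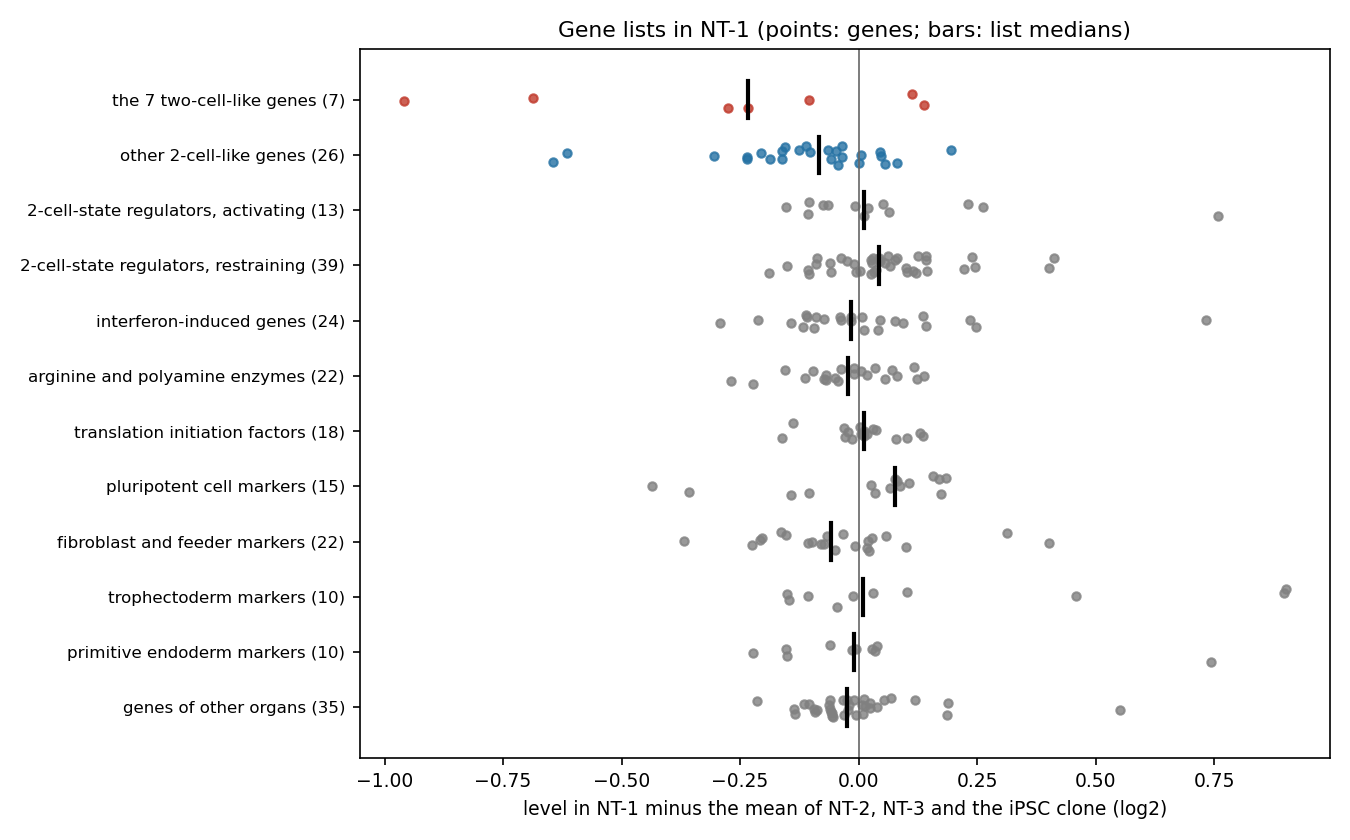
Level in NT-1 minus the mean of NT-2, NT-3 and the iPSC clone (x axis, log2) for each measured gene (points) of the 7 genes and of 11 lists (rows, with the number of measured genes), with list medians as bars; the vertical scatter within a row carries no value. The medians are -0.23 for the 7 genes, -0.083 for the other 2-cell-like genes and 0.04 for the repressors of the state.

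Markers of other cells were read beside the low genes. Over all genes NT-1 was the lowest array for 25.0% and the highest for 22.4%. All cultures carried the pluripotent markers. NT-1 was the highest array for 7 of these 15 and the lowest for 3, with a median difference in NT-1 of 0.08 log2. Pou5f1 stood at 12.25 in NT-1, 12.21 in NT-2, 12.20 in NT-3 and 12.22 in the clone. Dppa5a was low in NT-1, at 13.34 against 13.76 to 13.78 on the others. Fibroblast and feeder markers were lowest in NT-1 for 7 of 22 and highest for 2, and their summed level was 186.0 in NT-1 against 185.7 to 188.5 on the other arrays. Of the trophectoderm markers 4 of 10 were highest in NT-1, with a summed level of 73.1 in NT-1 against 70.3 to 72.3 on the others. Krt8 stood at 9.62 in NT-1, 9.35 in NT-2, 8.41 in NT-3 and 8.39 in the clone, and Krt18, its keratin partner, differed by 0.90 log2, while Cdx2 and Elf5, which define the trophectoderm, differed by -0.15 and 0.10. Primitive endoderm markers were highest in NT-1 for 2 of 10, with a summed level of 70.0 in NT-1 against 69.5 to 70.0 on the others. The arrays have no true zero, so no marker can be called absent. For Actb, the 3′ minus 5′ difference, a sign of RNA quality, was 0.28 log2 in NT-1 against 0.22 to 0.42 on the other arrays. The part of these markers in the low level of Usp17la and Tcstv1 was not tested.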

How the data were processed

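Total RNA was labelled with biotin and hybridized to 4 Affymetrix mouse arrays, per the labels' protocols. How the arrays were summarized and normalized is not given in the sources used here. On the log2 scale of the deposited values, 2 raised to a value averages 1 on each array and runs from 0.422 to 2.03, the form of a log2 of log intensity over its array mean. Each was therefore turned into a level as 7 times 2 raised to the value; the mean of 7 is an assumption.

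The 45101 probe sets included 64 controls. By the platform annotation, 1 gene was given for 34945, several for 932 and none for 9160. Probe sets with several genes name none, and gene IDs of 34741 were found in RefSeq (GRCm38.p6). Each of 18193 genes was represented by its brightest probe set over the arrays.

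Lines and clone were compared with limma 3.58.1 (R 4.3.3) by linear fits and empirical Bayes, two-sided, at a Benjamini-Hochberg adjusted p under 0.05. The spread is that of the 3 lines (degrees of freedom 2 residual, 3.57 prior), and the single iPSC array is taken to vary as they do. The fit was tested on simulated data, where it missed most changes as small as the members' differences between lines and clone, so a member that did not pass is not shown to be unchanged. Precision is limited by having 4 arrays.

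The members and lists were chosen with earlier results of these data known. Genes named are the members, up to 4 genes of each list by size of difference in each contrast among those reaching the median level, the 5 nearest in course to Usp17la and to Tcstv1, and 3 neighbours on each side. Pou5f1, Cdx2, Elf5, Eif1ax, Trim28, Kdm1a and Chaf1b were added for their known roles, and Tdpoz1, Krcc1, the single-gene probe set of Duxf3, the several-gene probe sets and the motif after their values or sequences were seen. Alternatives were the assumed mean, the deposited values as given, quantile normalization, the mean of probe sets, a filter on dim genes and leaving out each array.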

Additional observations from a re-analysis of the deposited data

How the results depend on the processing

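The direction of every member's difference, in both contrasts, was the same under each alternative that could be run, except that Sp110 in NT-1 had -0.0052 log2 with the mean of its probe sets, against 0.11. Leaving out dim genes dropped 4 of the 7 members and moved the median of the other 2-cell-like genes in NT-1 to -0.11 log2 over 11 genes, against -0.083. Leaving out 1 array in turn gave -0.12 to -0.073 for it. The count of probe sets 1.5-fold lower in NT-1 was 12 at the 16-bit mean and 14 to 17 with 1 array left out, against 7. Leaving out an array moves that count by construction, since fewer arrays must lie above NT-1. No setting gave a limma call between lines and clone. No paired analysis was possible because all the lines are set against a single iPSC array. The depth of the signal limits Tcstv1, Tcstv3 and Arg2, which lay below the array median throughout.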

Other observations

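Outside the 2-cell-like lists, 2 probe sets stood at least 1.5-fold lower in NT-1 than on every other array, and both were noticed after their values were seen. Krcc1, which encodes a lysine-rich coiled-coil protein, stood at 7.89 in NT-1, 8.73 in NT-2, 8.74 in NT-3 and 8.53 in the clone. The probe set 1445368_at has no gene in the platform annotation and stood at 7.08 in NT-1, 7.99 in NT-2, 8.05 in NT-3 and 8.03 in the clone. Its gap to the next array, -0.91 log2, was the third widest of all probe sets, after the probe sets annotated to the Gm4340 and Zscan4 families, and the other arrays lay within 0.07 log2 of each other.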
